A study of Mus musculus with 18 samples.

Results

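The fibrillar collagen genes were described in mouse tail tendon fibroblasts (TFs) cultured with or without *Hif1a* and in ambient or low O2. The 10 genes were *Col1a1*, *Col1a2*, *Col2a1*, *Col3a1*, *Col5a1*, *Col5a2*, *Col5a3*, *Col11a1*, *Col24a1* and *Col27a1*. They were taken by gene symbol from the 55491 rows of the table of estimated counts, and each symbol matched 1 row. All 10 passed the filter on low counts, both with the 12 Ctrl and cKO libraries and with all 18. TFs were grown for 4 days in 20% or 1% O2, and each of the 6 groups held 3 libraries. Ctrl TFs came from Cre-negative mice, which the labels call wild-type and to which the paper gives floxed *Hif1a* alleles. The cKO TFs came from mice with both *Hif1a* copies floxed and a Cre recombinase driven by *Scx*, a gene of the tendon lineage, so that cells outside this lineage keep *Hif1a*. The remaining arm, called gesicles here, was labelled wild-type and treated with Cre gesicles, vesicles that carry the recombinase into cells. Its labels do not say whether these cells carried floxed alleles. The mice had a mixed C57BL6J and 129S1 background, were 4 to 6 months old and of both sexes, and all TFs had crawled out of collagen gels and been passaged on plastic that was coated with type I collagen.

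Fibrillar collagens are secreted as procollagens of 3 chains that wind into a rod, lose their end domains outside the cell and pack side by side into fibrils. Type I collagen, which joins a pair of *Col1a1* chains to a *Col1a2* chain, makes up most of the dry weight of tendon. Type III (*Col3a1*) and type V (*Col5a1*, *Col5a2*, *Col5a3*) collagens enter the same fibrils and limit their width. Type II (*Col2a1*) is the main collagen of cartilage, where type XI (*Col11a1*) shares its fibrils, and types XXIV (*Col24a1*) and XXVII (*Col27a1*) are minor members. HIF-1α, the protein of *Hif1a*, is a transcription factor that builds up in low O2 and raises the enzymes that hydroxylate collagen prolines.

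Library totals of estimated counts lay between 26967440 and 51806453 except in cKO 1% O2 replicate 1, which held 6857558. *Hif1a* ran from 335 to 371 CPM, counts scaled to a common library total, in the Ctrl 20% O2 libraries and from 294 to 431 in the libraries labelled cKO 20% O2, and the ranges also overlapped at 1% O2, at 365 to 488 and 398 to 504. Counts over the whole gene include exons outside the deleted part and so check neither label, and counts per exon were not examined. The paper reports reduced *Hif1a* by qPCR in cKO tail TFs from a longer culture. Of 8 tendon fibroblast markers, 7 exceeded a mean of 1 CPM in every group, and their sum ran from 1420 to 3190 CPM, while *Kera* stayed at or under 0.43 CPM. Leukocyte markers summed to at most 4.08 CPM. Endothelial markers summed to 11.5 to 76.6 CPM, keratinocyte markers to 11 to 30.5 CPM and skeletal muscle markers to 9.32 to 41.8 CPM, with 1 gene of 5 above 1 CPM in each of these lists.

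Levels between genes were compared as CPM per kilobase of exon, averaged over all 18 libraries, with CPM scaled by TMM factors. The 5 highest genes carried nearly all of the signal. *Col1a1* (chr 11: 94936224 to 94953042, GRCm38) led at 621 CPM per kb. *Col3a1* (chr 1: 45311538 to 45349706) followed at 357, *Col5a2* (chr 1: 45374321 to 45503282, the neighbour of *Col3a1*) at 269.9, *Col1a2* (chr 6: 4504814 to 4541544) at 221 and *Col5a1* (chr 2: 27886425 to 28039514) at 129. These 5 held between 98.6% and 99.5% of the per-kb total of the 10 genes in each library. *Col5a3* (chr 9: 20770050 to 20815067) reached 11.9 CPM per kb and *Col11a1* (chr 3: 114030540 to 114220718) 2.88. The 3 lowest were *Col24a1* (chr 3: 145292472 to 145552011) at 0.357, *Col2a1* (chr 15: 97975602 to 98004695) at 0.173 and *Col27a1* (chr 4: 63214004 to 63334991) at 0.118.

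Neighbours in this order often did not differ beyond their spread. In Ctrl 20% O2, *Col3a1* at 332 to 351 CPM per kb fell within the 330 to 403 of *Col5a2*, and *Col1a2* at 207 to 256 met the upper end of *Col5a1* at 118 to 209. In the cKO 20% O2 libraries the first places changed, with *Col3a1* at 558 ± 313 CPM per kb (SD, n = 3) and *Col1a1* at 437 ± 191, and these ranges overlapped. *Col3a1* shares 141 bases with *Gm47302* on its own strand, which never exceeded 2 counts. *Col5a1* shares 99 bases with *2810430I11Rik* and 113 bases with *Gm13372* on the opposite strand, with at most 182 and 12 counts, and whether counting used strand is not given in the sources used here.

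**Figure D1:**
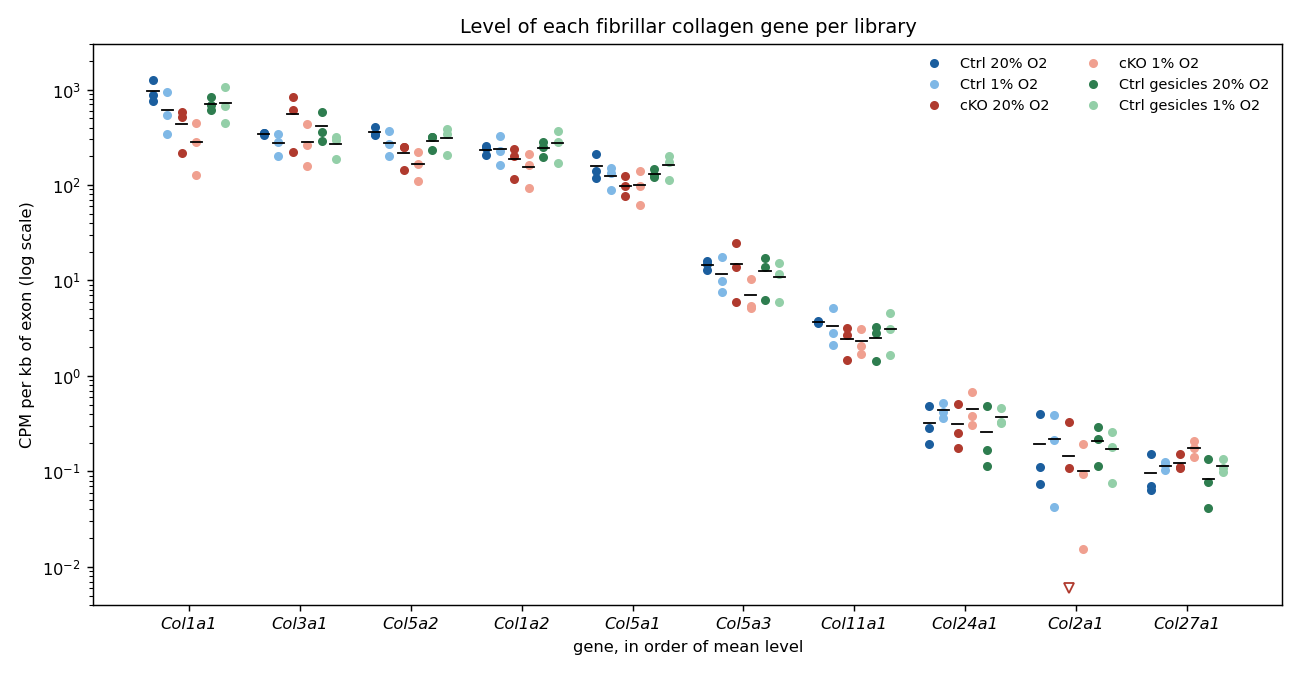
Level of each fibrillar collagen gene in CPM per kb of exon (log axis), genes in order of mean level, 1 point per library, colours for the 6 groups and black bars for group means (n = 3). *Col1a1*, *Col3a1*, *Col5a2*, *Col1a2* and *Col5a1* lie above the other 5 genes in every library, and the open triangle marks the cKO 20% O2 library with 0 counts of *Col2a1*.

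Promoter sequences from RefSeq (GRCm38.p6) matched 7 of the 10 genes. The 250 bases upstream of the start are shown for *Col3a1*, *Col24a1* and *Col5a3*, which the O2 comparisons below turn on, and for *Col5a1*, whose mean O2 value was the closest to 0. Capitals mark the core of the HIF binding site, written ACGTG or GCGTG and searched on both strands, so that CACGT and CACGC count as well.
*Col3a1*, chr1:45311288-45311537, plus strand: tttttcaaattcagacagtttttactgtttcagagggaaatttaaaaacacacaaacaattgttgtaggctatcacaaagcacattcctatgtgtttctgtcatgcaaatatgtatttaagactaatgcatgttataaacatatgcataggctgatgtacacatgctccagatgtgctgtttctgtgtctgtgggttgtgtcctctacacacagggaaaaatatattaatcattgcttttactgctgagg
*Col24a1*, chr3:145292222-145292471, plus strand: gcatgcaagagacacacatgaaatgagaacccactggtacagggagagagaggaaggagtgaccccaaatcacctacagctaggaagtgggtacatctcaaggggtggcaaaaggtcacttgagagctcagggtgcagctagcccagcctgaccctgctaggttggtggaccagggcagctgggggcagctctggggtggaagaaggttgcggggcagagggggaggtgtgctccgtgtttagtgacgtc
*Col5a3*, chr9:20815068-20815317, minus strand: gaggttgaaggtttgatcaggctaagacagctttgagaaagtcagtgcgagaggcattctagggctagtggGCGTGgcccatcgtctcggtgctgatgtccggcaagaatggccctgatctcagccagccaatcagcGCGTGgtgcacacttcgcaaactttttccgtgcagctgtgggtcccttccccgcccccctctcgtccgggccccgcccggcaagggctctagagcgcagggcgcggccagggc
*Col5a1*, chr2:27886175-27886424, plus strand: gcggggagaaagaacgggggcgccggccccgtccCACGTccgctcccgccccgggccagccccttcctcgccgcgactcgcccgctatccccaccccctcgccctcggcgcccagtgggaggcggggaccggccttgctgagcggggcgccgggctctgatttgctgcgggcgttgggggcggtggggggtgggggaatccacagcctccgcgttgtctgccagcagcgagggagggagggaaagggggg
The core was found in 3 of the 7 promoters, against 38.6% of 32851 mouse promoters of the same length. *Col5a1* held 1 copy of ACGTG, *Col1a2* held 2 copies, and *Col5a3* held 2 copies of GCGTG. The windows of *Col3a1* and *Col24a1* held neither. For *Col1a2* and *Col27a1* the RefSeq start lay downstream of the gene start given above, so their windows fall inside the gene. *Col3a1* alone of the 7 held TATAAA, found in 12.4% of all promoters, and it lacked GGGCGG, which 5 of the 7 held against 32.7% of all. These letters describe the windows shown and were not tested for binding.

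As a share of all counts, the 10 genes together made up 1.77% ± 0.227 in Ctrl 20% O2, 1.34% ± 0.458 in Ctrl 1% O2, 1.41% ± 0.604 in cKO 20% O2, 0.916% ± 0.402 in cKO 1% O2, 1.55% ± 0.302 in gesicles 20% O2 and 1.48% ± 0.480 in gesicles 1% O2 (SD, n = 3). Over single libraries the share ran from 0.533% to 2.03%. None of 7 comparisons between groups passed the test (2-sided exact permutation tests, p = 0.3 to 0.9, adjusted p = 0.56 to 0.9, where 3 against 3 cannot go below 0.1). In bulk RNA, fewer cells of a type and less RNA per cell cannot be told apart. The make-up of the total differed between genotypes, as a description without a test. *Col1a1* made up 45.9% ± 5.06 of the per-kb total in Ctrl 20% O2 and 28.8% ± 3.19 in cKO 20% O2, with ranges of 41.0% to 51.1% and 26.2% to 32.4%. *Col3a1* made up 16.9% ± 3.00 and 35.1% ± 7.18, with ranges of 13.5% to 19.1% and 28.3% to 42.6%. At 1% O2 the share of *Col1a1* was 38.2% ± 5.04 in Ctrl and 27.3% ± 4.05 in cKO, and that of *Col3a1* 18.5% ± 2.37 and 28.2% ± 1.45. Neither gene's ranges overlapped between the genotypes at either O2 level.

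The first comparison asked what the TFs labelled cKO made in ambient O2. The libraries labelled cKO held less *Col1a1*, *Col5a2* and *Col11a1* than every Ctrl library, while their *Col3a1* levels lay on both sides of the Ctrl range. No fibrillar collagen passed the test. *Col1a1* stood at 8261, 4945 and 5801 CPM in the Ctrl 20% O2 libraries and at 3394, 1436 and 3774 CPM in those labelled cKO. The groups did not overlap, and the lowest library was cKO replicate 2. The fitted log2 fold change was −1.15 (SE 0.48, 95% interval −2.19 to −0.10), or 0.451-fold. The edgeR quasi-likelihood test gave an unadjusted p = 0.0337 and a Benjamini-Hochberg adjusted p = 0.326. *Col5a2*, a chain of type V collagen, stood at 3868, 3275 and 3167 CPM in Ctrl and 2426, 1376 and 2402 CPM in cKO. Again each cKO library was under each Ctrl library, and the log2 fold change was −0.74 (SE 0.29, −1.37 to −0.11, adjusted p = 0.307 by edgeR). *Col11a1* stood at 47.9, 45.4 and 46.4 CPM in Ctrl and 33.9, 18.5 and 40.2 CPM in cKO, a log2 fold change of −0.60 (−1.34 to 0.13, edgeR adjusted p = 0.410). The 3 Ctrl libraries were close together and the cKO libraries spread below them.

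*Col3a1* was higher in cKO on average, at 3254, 3441 and 3432 CPM in Ctrl and 8258, 2179 and 5985 CPM in cKO. In cKO it was both the highest and the lowest, so the groups overlapped, and the log2 fold change was 0.69 (−0.23 to 1.61, edgeR adjusted p = 0.441). *Col5a1*, the chain found in nearly all type V collagen, ran from 1006 to 1776 CPM in Ctrl and 645 to 1044.5 CPM in cKO, with a log2 fold change of −0.67 (−1.35 to 0.01, edgeR adjusted p = 0.354). The ranges of *Col5a1* met at their ends. The log2 fold changes of the other members were −0.35 for *Col1a2*, −0.38 for *Col2a1*, 0.01 for *Col5a3*, −0.06 for *Col24a1* and 0.37 for *Col27a1*, all with intervals across 0.

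A call needed an adjusted p below 0.05 together with a fold of 1.5 or more, and 0 of the 10 genes reached it by edgeR or DESeq2, against 0.347% of all 15850 genes tested by edgeR. At an unadjusted p under 0.05 edgeR listed 2 of 10, *Col1a1* and *Col5a2*, against 14.3% of all genes. The groups did not overlap for 3 of 10, all lower in cKO, against 10.3% of all genes lower without overlap and 21.2% in either direction. The median log2 fold change of the 10 genes was −0.36, with 7 of 10 negative, beside 0.03 over all genes. Sums of markers of other cells differed in this comparison. All 5 smooth muscle and pericyte markers exceeded 1 CPM in both groups and summed to 67.3 to 117 CPM in cKO against 151 to 248 CPM in Ctrl. None of these 5 was called. Skeletal muscle markers summed to 9.32 to 15 CPM against 22 to 41.8 CPM, nearly all *Acta1*, which was called lower (log2 fold change −1.28), with *Myog*, *Ckm* and *Pax7* at 0 counts in both groups. Their part in the result was not tested.

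At 1% O2 the same genotype comparison gave lower *Col1a1* and *Col5a2* in the cKO libraries on average, but the ranges overlapped. *Col1a1* stood at 2251, 6177 and 3522 CPM in Ctrl and 832, 1855 and 2924 CPM in cKO. Only cKO replicate 3 lay within the Ctrl range, and the log2 fold change was −1.09 (SE 0.48, −2.14 to −0.05, unadjusted p = 0.0414, edgeR adjusted p = 0.286). *Col5a2* stood at 1914, 3528 and 2559 CPM in Ctrl and 1068, 1584 and 2139 CPM in cKO, which gave −0.74 on the log2 scale (SE 0.29, −1.37 to −0.12, adjusted p = 0.248 by edgeR). Here too the highest cKO library passed the lowest Ctrl library. *Col1a2*, the partner chain of *Col1a1*, had a log2 fold change of −0.61 (−1.33 to 0.10, edgeR adjusted p = 0.345). *Col27a1* was higher in cKO, at 1.63, 1.52 and 1.35 CPM in Ctrl and 2.70, 2.28 and 1.85 CPM in cKO. Its groups did not overlap, and the log2 fold change was 0.57 (−0.19 to 1.34, edgeR adjusted p = 0.403).

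The remaining log2 fold changes at 1% O2 were 0.05 for *Col3a1*, −0.31 for *Col5a1*, −0.73 for *Col5a3*, −0.54 for *Col11a1*, −0.01 for *Col24a1* and −0.92 for *Col2a1*. Again 0 of 10 genes were called, by edgeR or DESeq2, against 0.0379% of all genes by edgeR. Both genes with an unadjusted p under 0.05, of 10, were *Col1a1* and *Col5a2*, against 16.8% of all genes, and 1 gene of 10 did not overlap, *Col27a1*, against 12.1% of all genes higher without overlap and 27.3% in either direction. The median was −0.57, with 8 of 10 negative, beside 0.00 over all genes. Without the shallow library, cKO 1% O2 replicate 1, the log2 fold change was −0.73 for *Col1a1* (edgeR adjusted p = 0.560), −0.51 for *Col5a2* (0.534) and −0.34 for *Col1a2*. Smooth muscle and pericyte markers summed to 123 to 165 CPM in cKO and 162 to 251 CPM in Ctrl, which overlapped. Skeletal muscle markers summed to 16.4 to 19.7 CPM in cKO and 23.5 to 29.6 CPM in Ctrl, and keratinocyte markers to 11 to 12 CPM and 14.8 to 22.3 CPM. Their part in these values was not tested.

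The ratio of 2 chains within a library does not depend on how libraries are scaled, and is a ratio of counts, not of molecules. *Col3a1* to *Col1a1* was higher and *Col1a1* to *Col1a2* lower in the libraries labelled cKO, without overlap at either O2 level. The ratio of *Col3a1* to *Col1a1* was 0.394, 0.696 and 0.592 in Ctrl 20% O2 and 2.43, 1.52 and 1.59 in cKO 20% O2. Every cKO library exceeded every Ctrl library, and the geometric means differed 3.31-fold. At 1% O2 the ratio was 0.888, 0.538 and 0.789 in Ctrl and 1.86, 1.38 and 1.46 in cKO, a 2.15-fold difference, again without overlap. *Col3a1* counts exceeded *Col1a1* counts in all 6 cKO libraries and in none of the 6 Ctrl libraries. This was not particular to cKO, since gesicles 20% O2 replicate 3 had a ratio of 1.05. The ratio of *Col1a1* to *Col1a2* was 2.74, 1.56 and 2.25 in Ctrl 20% O2 and 1.14, 0.994 and 1.51 in cKO 20% O2, and at 1% O2 it was 1.13, 1.53 and 1.25 in Ctrl and 0.714, 0.921 and 1.12 in cKO. Neither pair of groups overlapped, with log2 differences of −0.83 at 20% O2 and −0.52 at 1% O2. A lower *Col1a1* to *Col1a2* was not particular to cKO. Within Ctrl the ratio was also lower at 1% than at 20% O2 without overlap, with a log2 difference of −0.72. The Ctrl 1% O2 range overlapped that of cKO 20% O2. Between O2 levels the ranges overlapped in cKO (−0.41) and in gesicles (−0.17).

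Each of the 4 genotype differences above reached p = 0.1, the smallest that a 2-sided exact permutation test of 3 against 3 libraries can give. In all, 13 of the 28 ratio tests made did so, with an adjusted p of 0.2154. The tests therefore could not pass the threshold. Leaving out each library in turn kept the log2 difference of *Col3a1* to *Col1a1* between 1.49 and 1.90 at 20% O2 and between 0.90 and 1.26 at 1% O2. For *Col1a1* to *Col1a2* it stayed between −1.05 and −0.64 and between −0.67 and −0.35. The ratio of *Col5a1* to *Col1a1* was also higher in cKO without overlap, by 0.58 at 20% and 0.79 at 1% O2 on the log2 scale. *Col5a2* to *Col5a1*, both of type V, overlapped between the genotypes at 20% O2 and was lower in cKO at 1% O2, with a log2 difference of −0.40.

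**Figure D2:**
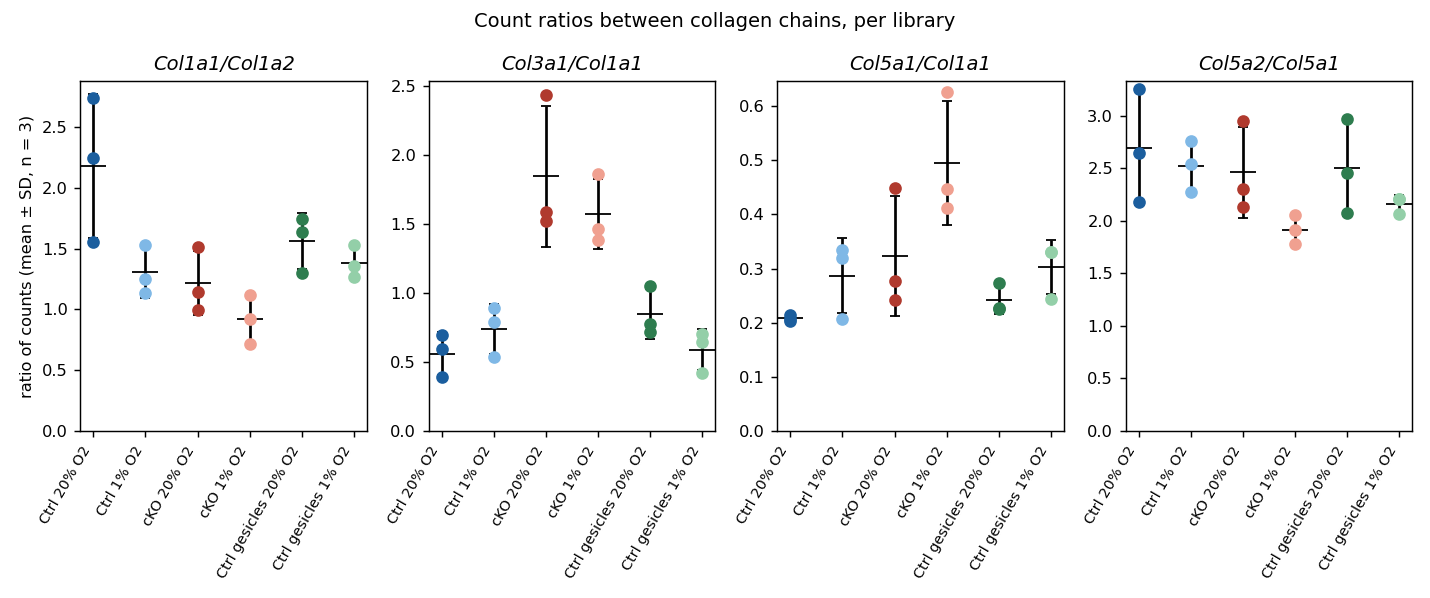
Ratio of counts between 2 fibrillar collagen chains in each library (points), with group means and SD (n = 3), for 4 pairs of chains in the 6 groups. *Col3a1* to *Col1a1* lies at 1.38 or more in the 6 cKO libraries and at 0.888 or less in the 6 Ctrl libraries. In the gesicles libraries it runs from 0.713 to 1.05 at 20% O2 and from 0.423 to 0.701 at 1% O2.

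The next comparisons asked what 4 days in 1% O2 did in each genotype. In Ctrl TFs no fibrillar collagen passed the test. *Col1a1* differed most, at −0.66 (SE 0.48, −1.70 to 0.37, edgeR adjusted p = 0.549), and Ctrl 1% O2 replicate 2 at 6177 CPM lay above 2 of the 3 Ctrl 20% O2 libraries. *Col24a1* stood at 1.47, 2.16 and 3.68 CPM in 20% O2 and 2.76, 3.22 and 3.97 CPM in 1% O2, a log2 fold change of 0.45. *Col5a2*, *Col5a1*, *Col3a1*, *Col5a3* and *Col11a1* had values of −0.36, −0.33, −0.32, −0.31 and −0.12, and *Col27a1*, *Col2a1* and *Col1a2* of 0.28, 0.16 and 0.02. Of the 10 genes 0 were called by edgeR or DESeq2, against 1.88% of all genes by edgeR, and 0 had an unadjusted p under 0.05, against 16.1%. No gene of the 10 was free of overlap, against 30% of all genes. The median was −0.21 beside 0.00 over all genes.

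In cKO TFs the lowest values at 1% against 20% O2 were those of *Col3a1* and *Col5a3*. *Col3a1* stood at 8258, 2179 and 5985 CPM in 20% O2 and 1546, 2568 and 4282 CPM in 1% O2. Replicate 2 of the 20% group lay inside the range of the 1% group, and the log2 fold change was −0.96 (SE 0.43, −1.88 to −0.03, unadjusted p = 0.0438, edgeR adjusted p = 0.239). *Col5a3*, the least abundant type V chain, stood at 168, 40.1 and 93.4 CPM and 35.0, 37.0 and 71.2 CPM. The same library overlapped, and the log2 fold change was −1.05 (SE 0.45, −2.04 to −0.07, unadjusted p = 0.0380, edgeR adjusted p = 0.226). Without cKO 20% O2 replicate 2 both genes were called, *Col3a1* at −1.32 (edgeR adjusted p = 0.0334) and *Col5a3* at −1.42 (0.0389). Without the shallow cKO 1% O2 replicate 1 the values were −0.65 (0.530) and −0.87 (0.477). The other 8 genes lay between −0.61 for *Col1a1* and 0.51 for *Col24a1*, with −0.38 for *Col2a1*, −0.36 for *Col5a2*, −0.25 for *Col1a2*, −0.06 for *Col11a1*, 0.03 for *Col5a1* and 0.49 for *Col27a1*. With all libraries 0 of 10 were called by edgeR or DESeq2, against 2.1% of all genes by edgeR, 2 had an unadjusted p under 0.05, against 19.8%, and none was free of overlap, against 20.6%. The median was −0.30 beside −0.03 over all genes. Sums of markers of other cells differed with O2 in cKO, but no single marker tested was called. Smooth muscle and pericyte markers summed to 123 to 165 CPM at 1% O2 and 67.3 to 117 CPM at 20% O2, and skeletal muscle markers to 16.4 to 19.7 and 9.32 to 15 CPM. Keratinocyte markers summed to 11 to 12 and 12.9 to 21.8 CPM, leukocyte markers to 0.925 to 1.99 and 2.01 to 3.11 CPM, and endothelial markers, which overlapped, to 16.8 to 40 and 37.2 to 76.6 CPM. Their part in these values was not tested.

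The O2 response did not differ between the genotypes beyond its error for any of the 10 genes. The largest interactions, the cKO change minus the Ctrl change, were −0.75 for *Col5a3* (−2.12 to 0.63), −0.64 for *Col3a1* (−1.94 to 0.66) and −0.54 for *Col2a1* (−3.94 to 2.86), each with an edgeR adjusted p of 0.999913. The tests called 0 of 10, against 0% of all genes, and 0 of 10 had an unadjusted p under 0.05, against 2.32%. The intervals of these 3 genes reach far below 0 and so do not show that the responses were alike.

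**Figure D3:**
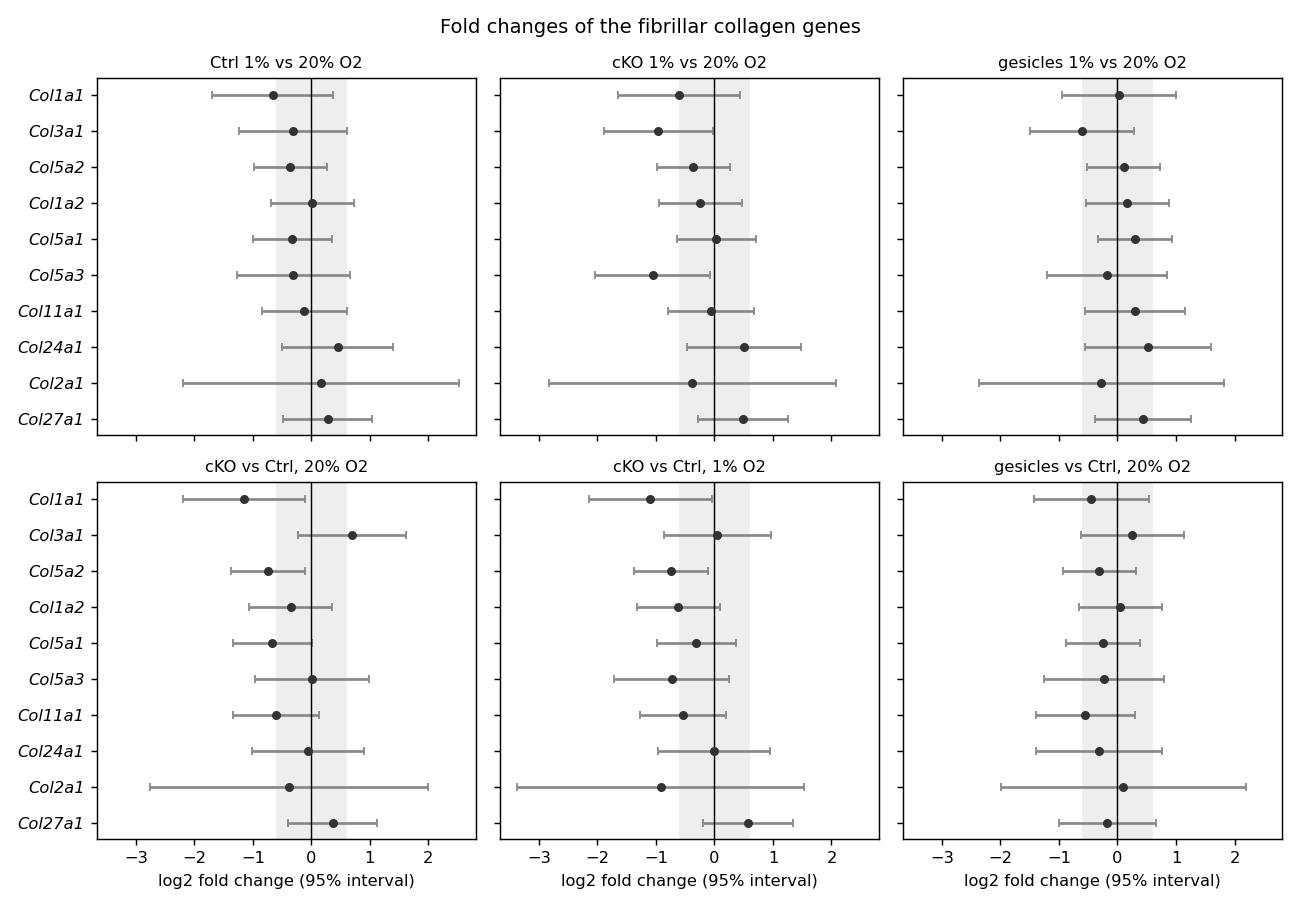
Log2 fold change of each fibrillar collagen with its 95% interval in 6 comparisons (edgeR), with the grey band marking fold changes under 1.5. Points for *Col1a1* and *Col5a2* lie left of 0 in both comparisons of cKO with Ctrl, with intervals that end just short of 0, and the intervals of *Col2a1* are the widest.

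Averaged over the Ctrl, cKO and gesicles arms, which reuses the libraries of the comparisons above, the fitted level at 1% O2 was lower for *Col3a1* and higher for *Col24a1* and *Col27a1*, and none of these passed the test. *Col3a1* had a fitted value of −0.63 on the log2 scale (SE 0.24, −1.15 to −0.12, unadjusted p = 0.0186, adjusted p = 0.0665 by edgeR), and it was called by DESeq2 at −0.64 (adjusted p = 0.0272). Over the alternatives with all libraries it ran from −0.64 to −0.38, with an adjusted p of up to 0.0818, and the values closest to 0 came with the GC and length offsets and lie under the 1.5-fold minimum. Its level was lower at 1% O2 in 7 of 9 pairs of libraries with the same arm and number, with log2 ratios of −0.70, −0.05 and −0.31 in Ctrl, −2.42, 0.24 and −0.48 in cKO and 0.14, −0.27 and −1.63 in gesicles. The pairs cKO 1 and gesicles 3 had the lowest ratios. In cKO and gesicles the libraries share a number but were not shown to be pairs. Same-numbered Ctrl and gesicles libraries were read as paired from the data, so the 9 pairs are not independent, here and for the genes below. The main edgeR fit over the arms had no block and treats these libraries as independent. Leaving out each library in turn moved the log2 fold change between −0.80 and −0.49. It was called without cKO 20% O2 replicate 2 (−0.76, edgeR adjusted p = 0.0108) and without cKO 1% O2 replicate 3 (−0.80, 0.0253), and it was −0.54 (0.118) without the shallow library.

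*Col24a1* stood at 3.84, 1.91 and 1.34 CPM in cKO 20% O2 and 5.12, 2.88 and 2.33 CPM in cKO 1% O2, and at 0.857, 1.27 and 3.73 CPM and 3.48, 2.43 and 2.50 CPM in the gesicles arm. It rested on 36 to 189 counts per library. It was higher at 1% O2 in 8 of 9 same-numbered pairs, with gesicles 3 as the exception, and its log2 fold change over the arms was 0.49 (−0.14 to 1.11, edgeR adjusted p = 0.243). With a block for each replicate number within Ctrl and gesicles together and within cKO, *Col24a1* was called at 0.63 (edgeR adjusted p = 0.0447). With the block and the offsets for GC content and exon length, *Col24a1* was called at 0.80 (0.0042). The block treats same-numbered libraries as paired, which was not shown within cKO or between the O2 levels of gesicles. Without gesicles 20% O2 replicate 3, the highest of its group, *Col24a1* was called at 0.78 (0.0408), and without the shallow library it was 0.37. *Col27a1* ran from 0.533 to 2.70 CPM over all libraries and was higher at 1% O2 in 7 of 9 pairs, with a log2 fold change of 0.40 (−0.08 to 0.88, edgeR adjusted p = 0.209). With the offsets alone, *Col27a1* was called at 0.71 (0.0291), and with the block as well at 0.74 (0.0119). Both genes lie near the lower end of what these libraries resolve, since 3 counts equal 0.0579 to 0.4375 CPM.

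Among the other members, the mean change over the arms was −0.52 for *Col5a3* (−1.12 to 0.08, edgeR adjusted p = 0.189, lower in 6 of 9 pairs) and −0.42 for *Col1a1* (−0.98 to 0.15, 0.264, lower in 5 of 9). *Col5a2* and *Col2a1* had values of −0.21 and −0.16, and *Col1a2*, *Col5a1* and *Col11a1* of −0.03, 0.00 and 0.04. Over the 10 genes edgeR called 0, against 10.5% of all genes tested, and DESeq2 called 1. At an unadjusted p under 0.05 edgeR listed 1 of 10, against 37.4% of all genes. The median was −0.09, beside −0.02 over all genes. Of 5 endothelial markers 2 were tested, *Kdr* and *Tek*, and both were called lower at 1% O2, with list sums of 11.5 to 27.6 against 27.9 to 45.5 CPM in Ctrl and of 17.4 to 25.2 against 25.8 to 61.3 CPM in gesicles. *Rgs5*, of 5 smooth muscle and pericyte markers tested, was called higher, and *Hapln1*, of 4 cartilage cell markers tested, was called lower. Their part in these values was not tested.

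**Figure D4:**
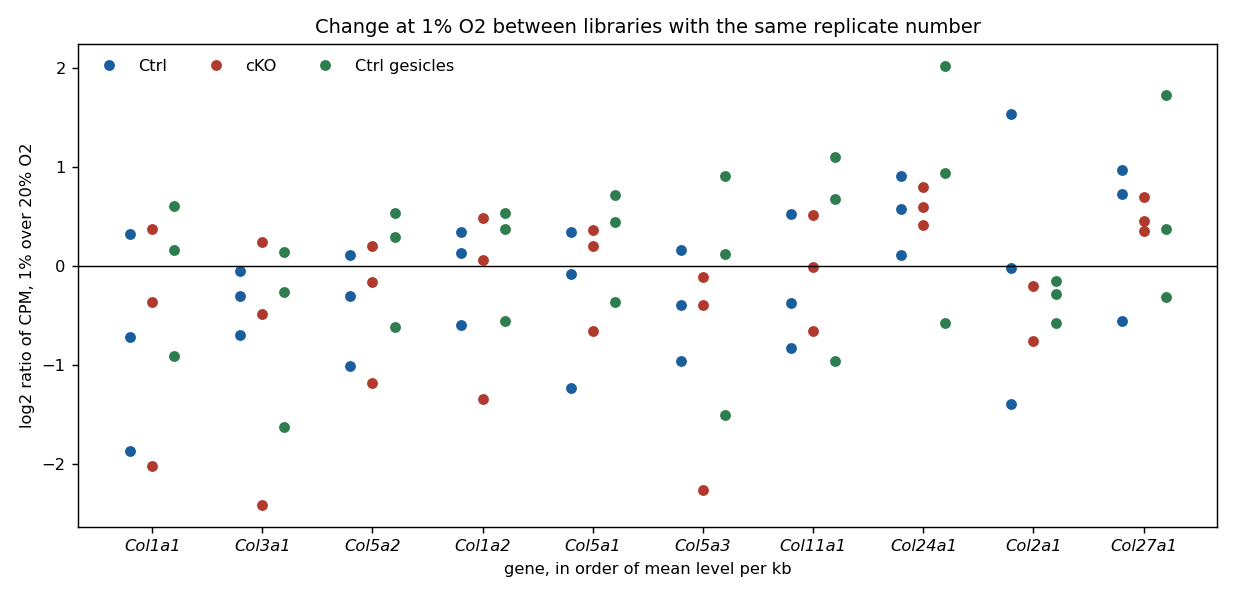
Log2 ratio of the level at 1% to that at 20% O2 for each fibrillar collagen, in each of 9 same-numbered pairs of libraries (points, coloured by arm, 3 pairs an arm). *Col24a1* lies above 0 in 8 pairs and *Col3a1* below 0 in 7, and *Col1a1* spreads on both sides, from −2.03 to 0.61. Ctrl and gesicles pairs of the same number are not independent.

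The gesicles arm was compared with Ctrl at each O2 level, and no fibrillar collagen passed the test. At 20% O2, *Col5a2* stood at 2239, 3055 and 3034 CPM with gesicles, all below the Ctrl libraries, and *Col11a1* at 18.3, 35.9 and 41.5 CPM, also all below Ctrl. The log2 fold changes were −0.31 and −0.55. *Col1a1* stood at 3961, 4548 and 5458 CPM, within or below the Ctrl range, with −0.44 (−1.42 to 0.53). *Col3a1*, at 2826, 3525 and 5731 CPM, had 0.25, and *Col1a2*, *Col2a1*, *Col5a1*, *Col5a3*, *Col24a1* and *Col27a1* had 0.04, 0.10, −0.25, −0.23, −0.31 and −0.17. All 10 had an edgeR adjusted p of 0.999861, 0 were called by edgeR or DESeq2, against 0.0247% of all genes by edgeR, and 0 had an unadjusted p under 0.05, against 3.67%. The 2 of 10 without overlap were lower, against 5.63% of all genes lower and 12.5% in either direction. The median was −0.24 beside 0.01 over all genes. The ratio of *Col3a1* to *Col1a1* was higher with gesicles without overlap, with means of 0.846 ± 0.179 and 0.560 ± 0.153 (SD, n = 3).

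At 1% O2 the gesicles and Ctrl libraries overlapped for all 10 genes, where 6.32% of all genes did not overlap, and 0 were called by edgeR or DESeq2, against 0% of all genes by edgeR, with 0 at an unadjusted p under 0.05, against 2%. *Col5a1* had the largest positive log2 fold change, 0.38 (−0.25 to 1.02), and *Col2a1* the largest negative, −0.33. The ratio of *Col3a1* to *Col1a1* ran the other way here, with means of 0.589 ± 0.147 with gesicles and 0.738 ± 0.1801 in Ctrl (SD, n = 3) and ranges that overlapped. Skeletal muscle markers summed to 33.3 to 36.1 CPM with gesicles and 23.5 to 29.6 CPM in Ctrl, and to 19.2 to 25.9 CPM with gesicles at 20% O2, and their part in these values was not tested. Within the gesicles arm, 1% against 20% O2 gave −0.61 for *Col3a1* (−1.50 to 0.28, edgeR adjusted p = 0.484) and 0.52 for *Col24a1* (−0.56 to 1.59, 0.648). None of the 10 was called by edgeR or DESeq2, against 2.41% of all genes by edgeR, none had an unadjusted p under 0.05, against 17.3%, and none was free of overlap, against 24%. The 2 medians were −0.02 and 0.14, beside −0.01 and −0.02 over all genes. Of 2 endothelial markers tested within the gesicles arm, *Kdr* was called lower at 1% O2. *Rgs5*, of 5 smooth muscle and pericyte markers tested, was called higher there. Their part in these values was not tested.

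The abundant members varied together from library to library. Over the 18 libraries, log2 CPM of *Col1a1* had a Pearson correlation of 0.98 with *Col5a2*, 0.907 with *Col5a1* and 0.899 with *Col1a2*, and Spearman correlations of 0.955, 0.835 and 0.82. *Col11a1* and *Col5a3* had 0.77 and 0.752. *Col3a1* had only 0.503 over all libraries but 0.843 once each library was expressed as its deviation from its group mean. *Col24a1* and *Col27a1* had −0.259 and −0.486, and −0.128 and −0.055 as deviations from group means, and *Col2a1* had 0.424. Of 16164 other genes, those most like *Col1a1* were *Tmem104* (0.969), *Asap1* (0.966) and *Ski* (0.96), and only *Col5a2* of the members exceeded them. The libraries share groups, depth and in part the same numbered cultures, so these values are descriptions.

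The genes that process collagen were read from lists for each step. Of the chain synthesis and folding list, 18 of 19 genes were tested, and the prolyl 4-hydroxylase subunits *P4ha1* and *P4ha2* rose at 1% O2. *P4ha1* stood at 242 ± 25.7 CPM in Ctrl 20% O2 and 596.5 ± 26.2 CPM in Ctrl 1% O2 (SD, n = 3), a log2 difference of 1.31 (SE 0.11, adjusted p = 9.16e-05 by edgeR). It also rose in cKO, with 265 ± 10.9 CPM at 20% and 498 ± 13.05 CPM at 1% O2 (log2 fold change 0.92, edgeR adjusted p = 0.00134), and in gesicles by 0.88 (1.02e-04). The interaction for *P4ha1* was −0.39 (SE 0.15, edgeR adjusted p = 1.00). *P4ha1* kept its calls in these 3 comparisons without any one library. *P4ha2* rose by 0.78 in Ctrl (0.0235), a call that was lost without Ctrl 20% O2 replicates 1 or 2 or Ctrl 1% O2 replicates 1 or 3, and by 0.66 over the 3 arms (2.13e-04). So 2 of the 18 tested genes were called in Ctrl, 1 in cKO, 1 in gesicles and 2 over the arms, all higher, where 1.88%, 2.1%, 2.41% and 10.5% of all genes were called in either direction. None of them was called in the comparisons of cKO or gesicles with Ctrl or in the interaction. The median of the list in Ctrl was 0.27, beside 0.00 over all genes.

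Among 14 tested partners of the fibril, out of 15 listed, the libraries labelled cKO held more RNA of decorin and lumican, small proteoglycans that bind fibrils. *Dcn* rose from 212 ± 66.3 CPM in Ctrl to 828 ± 127 CPM in cKO at 20% O2, a log2 fold change of 1.96 (SE 0.29, adjusted p = 0.0233 by edgeR), and by 2.58 at 1% O2 (SE 0.29, 0.0171). *Lum* rose from 1.15 ± 0.2345 to 12.5 ± 5.60 CPM at 20% O2, a log2 fold change of 3.44 (SE 0.55, 0.0252). These were the 2 called at 20% O2 and, for *Dcn*, the 1 called at 1% O2, against 0.347% and 0.0379% of all genes, and list medians were 0.15 and 0.02. Over the 3 arms at 1% O2, 3 partners were called higher and 2 lower, where 10.5% of all genes were called, among them *Aspn* (1.05, edgeR adjusted p = 5.21e-04), *Fmod* (0.70, 0.00594) and *Dcn* (−0.61, 0.0141), with a list median of 0.09. *Dcn* lost this call with the GC and length offsets, both with and without the replicate block. It also lost it in 5 of 18 refits that left out 1 library. These 5 fell short of the fold minimum, since the edgeR adjusted p was at most 0.0330 in the 18 refits. The libraries left out were Ctrl 20% O2 replicate 3, cKO 20% O2 replicate 2, cKO 1% O2 replicate 1, gesicles 20% O2 replicate 3 and gesicles 1% O2 replicate 2. No partner was called in any other comparison.

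Of the 7 tested genes of collagen breakdown and uptake, out of 8, *Mmp2* and *Fap*, which encode proteases that cut collagen or its fragments, were higher in cKO at 20% O2. *Mmp2* rose from 160.1 ± 18.2 to 320.2 ± 55.5 CPM, or 0.99 in log2 units (SE 0.15, adjusted p = 0.0233 by edgeR), and *Fap* from 0.134 ± 0.0430 to 1.895 ± 0.676 CPM, by 3.77 (SE 0.58, 0.0233), with 3 to 6 counts in each Ctrl library. These were 2 of 7 called, against 0.347% of all genes, and the list median was 0.14. *Mmp13*, a collagenase, fell by 1.47 on the log2 scale over the 3 arms at 1% O2 (0.00764), the 1 call of 7 there against 10.5% of all genes, with a list median of −0.19. Each of these genotype calls was lost in some refits that left out 1 library. At 20% O2, *Lum* and *Fap* lost it without any of the Ctrl libraries or cKO replicate 3, *Mmp2* without Ctrl replicates 1 or 3 or cKO replicate 3, and *Dcn* without Ctrl replicates 1 or 2 or cKO replicates 2 or 3. At 1% O2, *Dcn* lost it in every such refit but that without cKO replicate 1. The log2 fold changes stayed between 1.80 and 2.24 for *Dcn* at 20% O2, 3.01 and 3.66 for *Lum*, 3.57 and 4.03 for *Fap*, 0.91 and 1.12 for *Mmp2* and 2.37 and 2.87 for *Dcn* at 1% O2.

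None of 12 genes of propeptide processing and crosslinking and none of 7 collagen receptor genes was called in any of the 9 comparisons, with medians over the 3 arms at 1% O2 of 0.11 and −0.12. In the genotype comparisons at 20% and 1% O2 the medians were −0.04 and −0.37 for crosslinking and −0.24 and −0.20 for receptors. Of 10 transcription factors of collagen genes, *Egr2* (−0.95, edgeR adjusted p = 0.00567) and *Smad3* (−0.79, 0.0112) fell over the 3 arms at 1% O2, which is 2 of 10 against 10.5% of all genes, with a list median of −0.31, and none was called elsewhere.

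*Col2a1*, the cartilage collagen, was near the floor. It had 38, 23 and 121 counts in Ctrl 20% O2, 14, 66 and 140 in Ctrl 1% O2, 0, 39 and 135 in cKO 20% O2, 1, 30 and 72 in cKO 1% O2, 45, 89 and 136 in gesicles 20% O2 and 24, 51 and 80 in gesicles 1% O2. Replicate 3 was the highest in every group. The 0 allows up to 0.111 CPM in that library, which is 3 counts of its 26967440. Its 95% intervals were the widest of the members, from −2.20 to 2.52 in the O2 comparison of Ctrl, so that neither a rise nor a fall could be told from no change. Cartilage cell markers summed to 23.5 to 53.1 CPM, mostly *Sox9*. A mean of 1 CPM was exceeded by 3 of the 8 genes in Ctrl 20% O2 and by 2 in each other group. Of the 8, *Acan*, *Col9a1* and *Matn1* never exceeded 1 count.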

How the data were processed

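RNA of 18 TF cultures was sequenced after poly-A selection as paired-end reads. The authors trimmed reads with cutadapt, checked them with FastQC 0.11.8 and MultiQC 1.20, mapped them with STAR to GRCm38 and deposited the expected counts (estimated counts) of RSEM 1.3.3 per gene, unscaled and as whole numbers, in a table of 55491 rows, 4 of them transgenes. RSEM assigns reads that match several genes by estimate, which can shift counts between related collagens. Groups followed the labels. Separate cultures are described only as replicates, so p-values measure the spread between these libraries. For its ATP assay the paper gives a different mix of males and females in Ctrl and cKO. The sex of each library was not examined, and its part in the genotype comparisons was not tested. The labels and the paper differ on the serum in the medium, which was not used.

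Counts were filtered with filterByExpr, scaled by TMM (factors 0.962 to 1.03) and tested with edgeR 4.0.16 (quasi-likelihood, 1 coefficient per group), with the 12 libraries of Ctrl and cKO TFs together (15850 genes tested) and, for the gesicles arm and the mean of the 3 arms, in a fit of all 18 (16174 genes). Calls, intervals (95%) and standard errors (log2 fold change over the root of F) came from these fits, with Benjamini-Hochberg adjustment over all genes in each. The comparisons share groups of libraries and are not independent. Shares and ratios of chains were compared with 2-sided exact permutation tests. Exon lengths and positions came from GENCODE M21 on GRCm38. The floor of 3 counts covers counting error only, while the intervals also hold the spread between libraries.

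Alternatives were DESeq2 1.42.0, the paper's tool, size factors by RLE, no low-count filter and no minimum fold. Others were offsets for GC content and exon length (splines with 4 degrees of freedom, 99.87% of genes annotated) and a replicate block with and without these offsets. The block was the replicate number alone for cKO against Ctrl. Elsewhere it was the number within Ctrl and gesicles together or within cKO. Other sets of libraries in the fit were tried, and each library was left out in turn. The paper names a paired design without a pairing factor. Deviations from group means of same-numbered libraries had correlations of 0.271 to 0.458 between Ctrl at both O2 levels, 0.346 to 0.462 between Ctrl and gesicles at 20% O2 and 0.193 to 0.284 at 1% O2, so these numbers were read as pairs from the data, since the labels name no shared mouse. No 2 libraries were copies (smallest chi-square per degree of freedom 15.4). The fitting code was tested on simulated data. Scripts ran in R 4.3.3 and Python 3.11.15.

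The text names all 10 members, *Hif1a*, at most 3 called genes of each pathway list per comparison with the lowest adjusted p, and the 3 genes most correlated with *Col1a1*. Markers are named beside results. The members, lists and markers were chosen with earlier results of these data known.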

Additional observations from a re-analysis of the deposited data

How the results depend on the processing

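With all libraries, 0 of 10 fibrillar collagens were called in each of the 9 comparisons under the alternatives tried, except over the 3 arms. There DESeq2 and the fit without a filter each called 1 gene, *Col3a1* (−0.64, adjusted p = 0.0272, and −0.63, 0.0393), the GC and length offsets called 1, *Col27a1* (0.71, 0.0291), the replicate block called 1, *Col24a1* (0.63, 0.0447), and the offsets with the block called 2, *Col24a1* (0.80, 0.0042) and *Col27a1* (0.74, 0.0119). Leaving out 1 library gave 0 to 2 calls for 1% against 20% O2 in cKO and 0 to 1 over the 3 arms. The cause was not tested. *Col1a1* for cKO against Ctrl stayed between −1.19 and −0.94 at 20% O2 and −1.17 and −0.73 at 1% O2 with all libraries, and between −1.41 and −0.84 and −1.56 and −0.63 without any 1 library. Fold changes under the alternatives were followed for all 10 members in most comparisons. Only some members were followed in the interaction, gesicles against Ctrl at 1% O2 and 1% against 20% O2 in gesicles. Of the member values followed with all libraries, 28 changed sign. These were −0.0089 for *Col1a2* for 1% against 20% O2 in Ctrl, 0.017 for *Col24a1* for cKO against Ctrl at 1% O2 with DESeq2 and −0.0089 for *Col1a2* for 1% against 20% O2 in Ctrl, 0.0081 for *Col24a1* for cKO against Ctrl at 1% O2 with RLE factors. They were also 0.0019 for *Col5a1* over the 3 arms without a filter, and 0.092 for *Col11a1* for 1% against 20% O2 in Ctrl, 0.12 for *Col1a2*, 0.26 for *Col11a1* for 1% against 20% O2 in cKO, 0.047 for *Col2a1*, 0.14 for *Col24a1* for cKO against Ctrl at 20% O2, 0.12 for *Col5a1*, 0.34 for *Col24a1* for cKO against Ctrl at 1% O2, 0.20 for *Col1a2*, 0.057 for *Col2a1*, 0.17 for *Col5a1*, 0.00087 for *Col5a2* over the 3 arms with the offsets.

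The block changed no call of a member where the numbers pair the libraries. Between Ctrl and cKO at 20% O2 same-numbered correlations were as low as −0.149, with 0 of 3 libraries closest to their own number. At 1% O2 the Ctrl and cKO libraries had 2 of 3. Between the O2 levels the correlations ran from 0.0921 to 0.368 in cKO, with 2 of 3 closest, and from −0.00612 to 0.216 in gesicles, with 1 of 3. These values do not settle whether the numbers mark pairs within cKO or gesicles. Sign changes with the block were −0.035 for *Col1a2* for 1% against 20% O2 in Ctrl, −0.020 for *Col5a1* for 1% against 20% O2 in cKO, −0.016 for *Col5a3* for cKO against Ctrl at 20% O2, −0.012 for *Col3a1* for cKO against Ctrl at 1% O2, and with the block and offsets 0.052 for *Col11a1* for 1% against 20% O2 in Ctrl, 0.10 for *Col1a2*, 0.26 for *Col11a1* for 1% against 20% O2 in cKO, 0.10 for *Col24a1* for cKO against Ctrl at 20% O2, 0.12 for *Col5a1*, 0.30 for *Col24a1* for cKO against Ctrl at 1% O2, 0.20 for *Col1a2*, 0.18 for *Col5a1* over the 3 arms.

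Some of the log2 fold changes followed switched sign when 1 library was left out. For 1% against 20% O2 in Ctrl, *Col2a1* ran from −0.61 to 1.23, *Col1a2* from −0.28 to 0.23, *Col11a1* from −0.57 to 0.12. For 1% against 20% O2 in cKO, *Col11a1* ran from −0.33 to 0.19, *Col5a1* from −0.29 to 0.30, *Col2a1* from −1.12 to 1.02, *Col1a2* from −0.51 to 0.029. For cKO against Ctrl at 20% O2, *Col2a1* ran from −1.78 to 0.69, *Col5a3* from −0.57 to 0.39, *Col24a1* from −0.59 to 0.35. For cKO against Ctrl at 1% O2, *Col3a1* ran from −0.39 to 0.35, *Col24a1* from −0.34 to 0.23. For gesicles against Ctrl at 20% O2, *Col2a1* ran from −0.29 to 1.16, *Col5a1* from −0.43 to 0.011, *Col1a2* from −0.073 to 0.18, *Col24a1* from −1.19 to 0.10, *Col27a1* from −0.69 to 0.32, *Col5a3* from −0.53 to 0.095, *Col3a1* from −0.087 to 0.46. For gesicles against Ctrl at 1% O2, *Col2a1* ran from −0.79 to 0.46. Over the 3 arms, *Col5a1* ran from −0.13 to 0.083, *Col2a1* from −0.43 to 0.29, *Col1a2* from −0.14 to 0.062, *Col11a1* from −0.13 to 0.12. The share of counts, in percentage points, ran from −0.0777 to 0.398 for gesicles against Ctrl at 1% O2 and from −0.290 to 0.186 for 1% against 20% O2 in gesicles. The log2 ratio of *Col3a1* to *Col1a1* for 1% against 20% O2 in cKO ran from −0.34 to 0.0045, and leaving out libraries from ratios was chosen after seeing the data.

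Calls over all genes, behind the percentages in the report, differed by tool and with the libraries kept. DESeq2 and edgeR called 696 and 298 for O2 in Ctrl, 886 and 333 in cKO, 732 and 390 in gesicles, 425 and 55 for cKO against Ctrl at 20% O2, 302 and 6 at 1% O2, 46 and 4 for gesicles against Ctrl at 20% O2, 0 and 0 at 1% O2, 2 and 0 for the interaction, and 1964 and 1697 over the 3 arms. Leaving out 1 library moved the edgeR counts to 116 to 261, 98 to 1373 and 148 to 346 for O2 in Ctrl, cKO and gesicles, 1 to 154 and 0 to 6 for cKO against Ctrl at 20% and 1% O2, 0 to 2 and 0 to 0 for gesicles against Ctrl, 0 to 1 for the interaction and 1492 to 2039 over the 3 arms. *Col2a1*, *Col24a1* and *Col27a1* rest on few counts, and with 3 libraries a group the intervals of all members are wide.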
